A study of Mus musculus with 10 samples.

Results

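The 10 genes described here encode subunits of the BAF complex, the mammalian SWI/SNF chromatin remodeller: Smarca4, Smarca2, Smarcb1, Smarcc1, Smarcc2, Smarcd1, Arid1a, Arid1b, Actl6a and Actl6b. They were taken by name, 10 of the 21938 protein-coding genes of the GENCODE annotation of mm10 on the autosomes, X and Y, and each name matched 1 gene. The cells were F123 mouse embryonic stem cells, the F1 line of a Mus musculus castaneus by S129/SvJae cross, grown with 1000 U/ml LIF and 15% knockout serum replacement on irradiated mouse fibroblasts and passaged once without these feeders before harvest. H3K4me3 ChIP-seq started from 2000000 fixed cells and ATAC-seq from 100000 fresh cells, each in 2 biological replicates. There was no second genotype, treatment or cell type, so the comparisons below are between genes of the same cells.

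BAF uses the energy of ATP to slide and evict nucleosomes, and each complex is put together from paralogs that can replace one another. Embryonic stem cells are known for a form built on the ATPase Smarca4, the core scaffold Smarcc1 and the actin-related subunit Actl6a. Maturing neurons replace Actl6a by its paralog Actl6b, and Smarca2 is the alternative ATPase of many differentiated cells. H3K4me3 is a histone mark of active and poised promoters, and an ATAC-seq peak marks DNA that the Tn5 transposase could reach.

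Each deposited peak list stands for both replicates and carries no read counts. The values below therefore have no spread between replicates, the depth behind them is unknown, and no difference was tested. The H3K4me3 list held 33487 peaks with a median width of 1135 bp and a median fold enrichment of 8.93. This fold enrichment is the peak caller's ratio of ChIP signal to background, and the list gives it for each peak beside a −log10 q. The ATAC-seq list held 179109 peaks with a median width of 261 bp and gave positions only. Of 8 embryonic stem cell markers, 7 had an H3K4me3 peak within 2 kb of their GENCODE start, at folds from 9.74 to 42.9. All 8 had an ATAC-seq peak there. Over all protein-coding genes, 66.4% had an H3K4me3 peak in that window and 74.6% an ATAC-seq peak. Esrrb was the marker without the H3K4me3 peak, and it had one of 27.1 at a RefSeq start. Of 8 fibroblast markers that feeders could bring in, 5 had an H3K4me3 peak, at folds from 3.39 to 20.4, and 3 (Col3a1, Postn and Lum) had none. The part of feeder cells in the results was not tested. Of 8 neuron markers, all 8 had an H3K4me3 peak, at folds from 8.34 to 25.4. Counts of marked genes therefore cannot check the cell type label. In such bulk samples fewer cells of a type and less signal per cell cannot be told apart.

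All 10 subunit genes had both H3K4me3 and ATAC-seq peaks within 2 kb of the 5′ end of the GENCODE gene record. Over all protein-coding genes, 66.4% had an H3K4me3 peak in that window, 74.6% an ATAC-seq peak and 65.9% both. The strongest H3K4me3 peak of the 10 genes had a median fold enrichment of 33.9, from 5.45 at Actl6a to 54.2 at Arid1a, against a median of 30.5 over the 14576 protein-coding genes with a peak. The bases under H3K4me3 peaks at the start had a median of 3197 bp against 2254 bp over those genes. By these medians the fold was near that of other marked genes, and the marked stretch was longer.

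**Figure D1:**
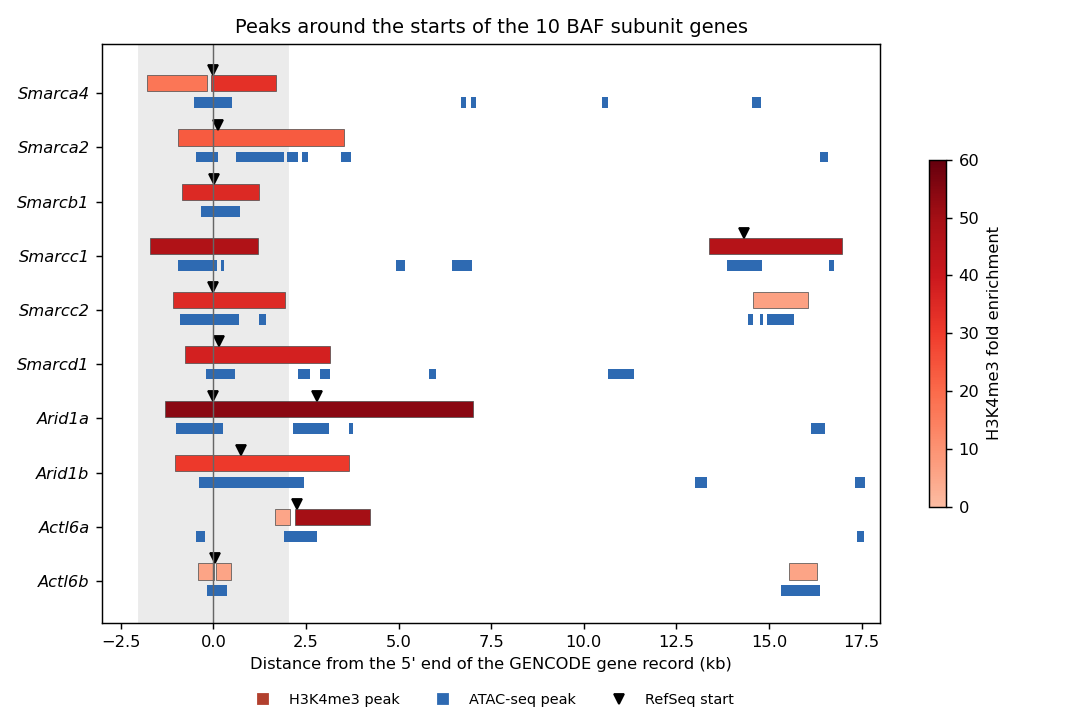
H3K4me3 peaks (upper bars, shaded by fold enrichment) and ATAC-seq peaks (lower bars, blue) of the 10 genes, by distance in kb from the 5′ end of the GENCODE gene record in the direction of transcription. Grey marks the 2 kb on either side, and triangles mark RefSeq starts. The strong peaks of Actl6a and the second peak of Smarcc1 lie at RefSeq starts 2.25 and 14.3 kb inside the gene record.

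The 5′ end of a gene record is that of its most upstream transcript, and for 2 members it was far from the start that RefSeq gives. RefSeq starts were found for all 10 members, and they lay within 158 bp of the GENCODE start in 6 of them and 742 bp away in Arid1b. Arid1a has a RefSeq start at the GENCODE start and another 2784 bp inside. The RefSeq start of Actl6a lies 2248 bp inside the record and that of Smarcc1 14316 bp inside. Around RefSeq starts, all 10 members again had both kinds of peak, and of the 16538 protein-coding genes with a RefSeq start 69.2% carried H3K4me3 there and 76.6% were open by ATAC-seq. The median fold of the members was then 35.0, from 5.80 at Actl6b to 54.2 at Arid1a, against 31.3 over all such genes. Actl6b was then the lowest member, and Smarca2 followed with 23.4.

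Smarca4, the ATPase of the stem cell complex, lies at chr9:21616169-21704230 on the plus strand. Its start carried H3K4me3 in 2 pieces. A peak of 1762 bp with a fold of 33.0 (−log10 q 471) began 70 bp before the start and ended 1691 bp after it, over the first exon and the beginning of intron 1. A weaker peak of 1629 bp with a fold of 16.9 (−log10 q 266) lay upstream, from 1803 to 175 bp before the start. The gap of 104 bp between them was wholly inside the single ATAC-seq peak of 1017 bp, which reached from 525 bp before to 491 bp after the start. The stronger fold was above that of 56.7% of protein-coding genes with a peak, close to the middle. The summed width of both peaks, 3391 bp, was above 82.6% of them.

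Smarca2, the alternative ATPase, lies at chr19:26605050-26778322 on the plus strand. A single H3K4me3 peak of 4463 bp covered its start, from 947 bp before it to 3515 bp after it, with a fold of 23.4 (−log10 q 280). That fold was above 31.8% of marked protein-coding genes, while the width was above 93.9% of them. Within the window it had 3 ATAC-seq peaks of 607, 1293 and 292 bp, and 2 more overlapped the same H3K4me3 peak further in. The start of Smarca4 had the higher fold of the pair, by 9.59, and the start of Smarca2 the longer continuous peak and more ATAC-seq peaks.

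Smarca2 also had a second marked start deep in the gene. An H3K4me3 peak of 1953 bp with a fold of 17.7 (−log10 q 114) lay 142160 to 144112 bp from the GENCODE start. GENCODE lists 46 transcripts of Smarca2, and 19 of them begin under this peak, which covers 16 of the 25 distinct starts of its protein-coding transcripts. An ATAC-seq peak of 1111 bp overlapped it, the widest in the gene body. The transcripts that begin there hold only the 3′ part of the gene.

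The promoters of both ATPases and the first internal start under the Smarca2 body peak are shown because their marks differ and their base composition does too. Each is 300 bases, 250 before the start and 50 after it, in the direction of transcription. The first and the second, chr9:21615919-21616218 and chr19:26604910-26605209 on the plus strand, are RefSeq promoters of GRCm38.p6, and the third, chr19:26747350-26747649 on the plus strand, was read from the same build. Capitals mark matches to the short motifs named further on.
Smarca4 promoter: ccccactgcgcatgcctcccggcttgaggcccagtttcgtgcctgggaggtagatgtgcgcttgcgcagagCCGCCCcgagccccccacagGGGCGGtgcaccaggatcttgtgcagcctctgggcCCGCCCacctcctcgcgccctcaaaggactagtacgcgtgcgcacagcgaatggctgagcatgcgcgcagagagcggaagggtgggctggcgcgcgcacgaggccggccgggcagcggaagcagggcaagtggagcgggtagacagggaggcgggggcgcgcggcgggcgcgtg
Smarca2 promoter: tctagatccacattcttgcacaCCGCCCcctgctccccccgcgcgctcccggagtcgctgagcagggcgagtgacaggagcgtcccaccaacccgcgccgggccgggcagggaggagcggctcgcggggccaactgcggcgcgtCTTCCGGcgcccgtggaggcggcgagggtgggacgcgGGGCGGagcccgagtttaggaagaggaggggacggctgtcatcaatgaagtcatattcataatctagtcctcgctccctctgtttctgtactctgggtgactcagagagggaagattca
Smarca2 internal start: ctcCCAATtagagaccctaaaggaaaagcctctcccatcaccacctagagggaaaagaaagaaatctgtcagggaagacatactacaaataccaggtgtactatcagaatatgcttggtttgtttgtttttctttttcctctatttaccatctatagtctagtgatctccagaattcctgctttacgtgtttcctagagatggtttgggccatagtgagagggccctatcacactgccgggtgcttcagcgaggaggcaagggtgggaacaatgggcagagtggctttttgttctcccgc
The Smarca4 window is 72.3% G and C with 33 CpG dinucleotides, and the Smarca2 window 65.7% with 29. The internal Smarca2 window is 46.0% G and C and holds 4 CpG dinucleotides, a ratio of observed to expected CpG of 0.252 against a median of 0.588 over 20148 RefSeq promoters of protein-coding genes. All 300 bases of the internal window lay under both the H3K4me3 peak and the ATAC-seq peak. The window at this first internal start was thus poor in CpG, unlike the upstream promoters of both ATPase genes. The peak covers 16 distinct starts of protein-coding transcripts, and windows at the others were not read.

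Actl6a, the actin-related subunit of the stem cell complex, lies at chr3:32706298-32726973 on the plus strand. Within 2 kb of the 5′ end of the record it had a single H3K4me3 peak, 425 bp wide with a fold of 5.45 (−log10 q 25.2), which lay 1655 to 2079 bp inside. The main peak began 2213 bp inside and so missed the window. It was 2008 bp wide, with a fold of 49.9 (−log10 q 792), and it covered the RefSeq start. At the RefSeq start the fold of Actl6a was above 91.4% of marked genes, the second highest of the 10 members. An ATAC-seq peak of 876 bp covered the RefSeq start and the whole gap of 133 bp between the weak and the strong H3K4me3 peak. The other ATAC-seq peak near the upstream end of the record was 238 bp wide and touched no H3K4me3 peak.

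Actl6b, the paralog of neurons, lies at chr5:137553517-137569582 on the plus strand. Its start carried 2 short, weak H3K4me3 peaks, of 435 bp with a fold of 5.79 and of 399 bp with a fold of 5.80, on either side of a gap of 64 bp that held the RefSeq start. The stronger −log10 q was 28.4. A single ATAC-seq peak of 523 bp covered the gap and was the narrowest total ATAC-seq width at any member start. The fold was above 4.61% of marked protein-coding genes and below that of all 8 neuron markers, the lowest of which was Syp with 8.34. Actl6b was thus the member with the least H3K4me3 at its RefSeq start, with a weak mark beside an open site.

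For this pair the order depended on which start was used. With the 5′ end of the gene record, Actl6a had a fold of 5.45 and Actl6b one of 5.80. At RefSeq starts the values were 49.9 and 5.80, a ratio of 8.60. The 3 windows that follow lie at starts compared here, all on the plus strand of GRCm38.p6. The first and the second are the RefSeq promoters of Actl6a at chr3:32708296-32708595 and of Actl6b at chr5:137553296-137553595. The third is the window of the same shape at the GENCODE start of Actl6a, chr3:32706048-32706347.
Actl6a promoter: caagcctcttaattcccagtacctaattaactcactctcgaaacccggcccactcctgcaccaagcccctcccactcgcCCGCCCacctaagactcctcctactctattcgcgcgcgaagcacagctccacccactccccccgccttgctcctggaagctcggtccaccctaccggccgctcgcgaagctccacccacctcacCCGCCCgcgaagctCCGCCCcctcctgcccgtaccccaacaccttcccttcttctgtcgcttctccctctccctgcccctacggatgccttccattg
Actl6b promoter: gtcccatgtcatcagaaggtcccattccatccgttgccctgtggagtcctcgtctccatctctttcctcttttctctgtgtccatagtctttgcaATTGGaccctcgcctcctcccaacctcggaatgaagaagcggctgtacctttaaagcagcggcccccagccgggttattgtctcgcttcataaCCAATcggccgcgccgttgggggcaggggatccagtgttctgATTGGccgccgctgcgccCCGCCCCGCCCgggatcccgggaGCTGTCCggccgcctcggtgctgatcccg
Actl6a GENCODE start: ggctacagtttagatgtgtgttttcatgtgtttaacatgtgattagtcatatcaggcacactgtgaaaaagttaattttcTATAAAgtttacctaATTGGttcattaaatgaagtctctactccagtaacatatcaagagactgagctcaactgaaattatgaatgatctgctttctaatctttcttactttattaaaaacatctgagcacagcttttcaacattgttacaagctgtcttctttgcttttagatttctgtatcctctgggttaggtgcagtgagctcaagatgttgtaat
The Actl6a and Actl6b promoters were alike in composition, with 63.7% and 61.7% G and C and 21 and 23 CpG dinucleotides. The window at the upstream end of the Actl6a record is 33.7% G and C and holds 0 CpG dinucleotides. None of its bases (0 of 300) lay under an H3K4me3 peak, and 14 lay under an ATAC-seq peak. The promoter of Actl6a had 167 bases under H3K4me3 and 300 under ATAC-seq, and that of Actl6b 236 and 247.

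Smarcc1, the scaffold subunit of the stem cell complex, lies at chr9:110117708-110240178 on the plus strand and had 2 strongly marked starts. The H3K4me3 peak at the 5′ end of the record was 2903 bp wide with a fold of 47.1 (−log10 q 827). The start of Dhx30, a protein-coding gene on the minus strand, lies 122 bp inside the record and under the same peak. Marks of Smarcc1 and Dhx30 cannot be told apart there. The second peak lay 13394 to 16972 bp inside, 3579 bp wide with a fold of 45.9 (−log10 q 858), and covered the RefSeq start. A single ATAC-seq peak of 943 bp covered that start. The fold at the GENCODE start was above 87.9% of marked genes and that at the RefSeq start above 85.5%.

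Smarcc2, the paralog of Smarcc1 and also a scaffold subunit, lies at chr10:128459248-128490482 on the plus strand. Its start had an H3K4me3 peak of 3003 bp with a fold of 34.8 (−log10 q 593) and 2 ATAC-seq peaks of 1596 and 208 bp. The microRNA gene Mir8105 starts 568 bp from it, under the same H3K4me3 peak. A weaker peak in the body, 14579 to 16062 bp inside, had a fold of 6.27 and covered the start of a transcript with a retained intron. Smarcc1 had the higher fold of the pair by 12.3 at the GENCODE starts and by 11.1 at the RefSeq starts. The former value uses the peak shared with Dhx30.

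Arid1a and Arid1b encode the large DNA-binding subunits that define the canonical complex and exclude one another. Arid1a, at chr4:133679008-133756769 on the minus strand, had the highest fold of the members, 54.2 (−log10 q 783), and the widest peak, 8330 bp from 1312 bp before the start to 7017 bp after it. Of the 33487 H3K4me3 peaks in the list, 24 were wider. The peak covered both RefSeq starts, with ATAC-seq peaks of 1265 bp over the outer one and 981 bp over the inner one. Its summit lay 4106 bp inside the gene, beyond both starts. Arid1b, at chr17:4994332-5347656 on the plus strand, had a fold of 30.6 (−log10 q 534) over 4719 bp. It had the widest ATAC-seq peak of any member, 2835 bp from 398 bp before to 2436 bp after the start, and 4 of the 179109 ATAC-seq peaks were wider. Both genes had wide H3K4me3, above 99.7% of marked genes for Arid1a and 95.2% for Arid1b. The ATAC-seq width of Arid1a depended on the start used. At the GENCODE start it was 1265 bp, above 73.9% of genes with such a peak. Within 2 kb of its 2 RefSeq starts the ATAC-seq peaks summed to 2369 bp, above 98.3%.

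Smarcb1 encodes a core subunit that contacts the nucleosome's acidic patch, and Smarcd1 a subunit that its paralogs Smarcd2 and Smarcd3 can replace. Smarcb1, at chr10:75896769-75921617 on the minus strand, had a compact start with an H3K4me3 peak of 2106 bp, a fold of 35.3 (−log10 q 761) and an ATAC-seq peak of 1052 bp. Smarcd1, at chr15:99702129-99713991 on the plus strand, had an H3K4me3 peak of 3917 bp with a fold of 37.8 (−log10 q 592) and an ATAC-seq peak of 788 bp. An antisense transcript gene, Gm34939, starts 1847 bp inside Smarcd1 under the same peak.

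Across the 4 paralog pairs, the first of each pair (Smarca4, Smarcc1, Arid1a and Actl6a) had the higher fold in 3 pairs at the GENCODE starts and in all 4 at the RefSeq starts. Of the 3 named above for the stem cell complex, Smarca4 and Smarcc1 were higher at the GENCODE starts, and Actl6a too at the RefSeq starts. The GENCODE value of Smarcc1 is that of the peak shared with Dhx30. The ratio of folds at RefSeq starts was 1.41 for Smarca4 over Smarca2, 1.32 for Smarcc1 over Smarcc2, 1.77 for Arid1a over Arid1b and 8.60 for Actl6a over Actl6b. The Actl6 pair stood apart by the size of this ratio. As each value comes from a single list for both replicates, no ratio has an error.

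**Figure D2:**
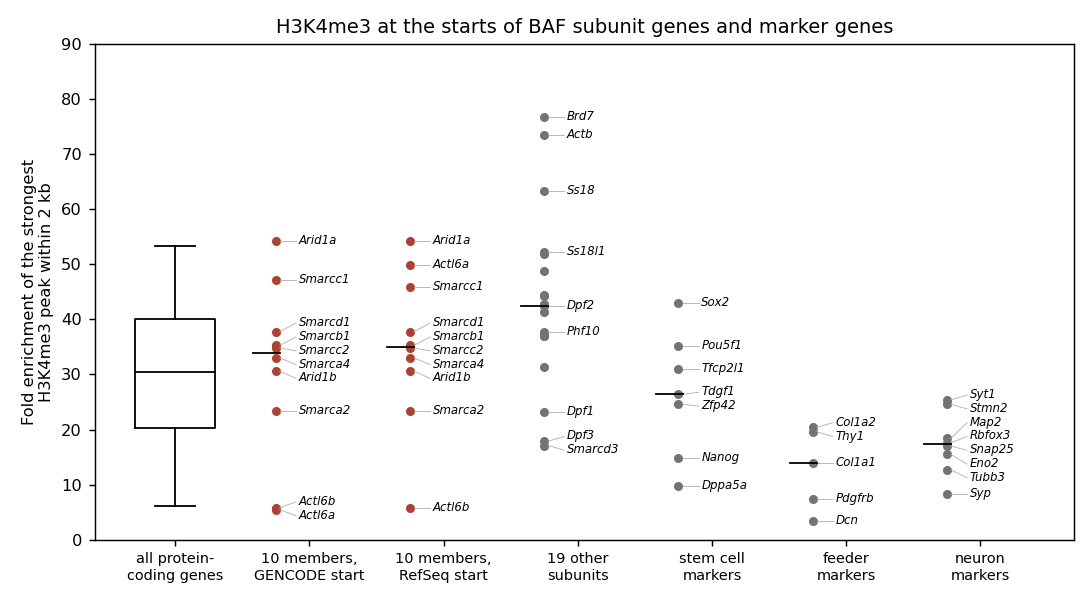
Fold enrichment of the strongest H3K4me3 peak within 2 kb of the start, for genes that had one. The box gives the median, the middle 50% and the 5th to 95th percentiles of all protein-coding genes, points are single genes and short lines medians; columns use GENCODE starts except the one labelled RefSeq. Actl6a moves from 5.45 to 49.9 between both member columns and Actl6b stays at 5.80.

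The other 19 subunit genes of the BAF, PBAF and ncBAF complexes all had both kinds of peak at their GENCODE starts, where 66.4% and 74.6% of all protein-coding genes had them. Their folds had a median of 42.4 and ran from 17.1 to 76.7. The highest were Brd7, a bromodomain subunit of PBAF, with 76.7 and Actb, the actin of the complex and of the cytoskeleton, with 73.5. The lowest were Smarcd3, a paralog of Smarcd1 known from heart and muscle, with 17.1 and Dpf3 with 17.9. Dpf1 and Dpf3, which replace Phf10 and Dpf2 in neurons, had folds of 23.1 and 17.9 against 37.7 and 42.4. Ss18l1, the neuronal counterpart of Ss18, had 52.2 against 63.4. In each of these sets the neuronal gene had the lower value, although the fold of Ss18l1 was itself above 93.8% of marked genes. At GENCODE starts none of the 19 had a fold as low as that of Actl6b. RefSeq starts were found for 12 of the 19, and the lowest fold there was 2.93 at Smarcd2, another paralog of Smarcd1. Its RefSeq start lies 5340 bp inside the gene record and had an H3K4me3 peak of 298 bp and 0 ATAC-seq peaks within 2 kb. At its GENCODE start Smarcd2 had a fold of 42.8 and 1 ATAC-seq peak.

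The H3K4me3 of 2 members was split into at least 2 peaks at the GENCODE start (Smarca4 and Actl6b), which held for 8.21% of protein-coding genes. At RefSeq starts 3 members were split (Actl6a in addition), against 10.7%. All 3 gaps lay wholly inside an ATAC-seq peak, and the same share over all split starts was not computed. The summit of the strongest H3K4me3 peak lay downstream of the nearest RefSeq start in 9 of 10 members, by 75 bp at Smarcd1 to 1322 bp at Arid1a, and downstream in 80.8% of the 11441 genes with a peak. Smarca2 was the exception, with its summit 308 bp upstream.

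The 11 RefSeq promoters of the members were rich in G and C, from 60.7% to 81.0% with a median of 66.0%, against a median of 57.0% over the 20148 promoters. Their ratio of observed to expected CpG ran from 0.787 to 1.05, against a median of 0.588. All 11 held GGGCGG, the GC box of SP1, on either strand, as did 47.8% of all promoters. CCGGAAG, the ETS core, was in 2 (11.9% of all), GCGCATGCG of NRF1 in 2 (2.45%), AAGATGGCG of YY1 in 1 (1.93%) and CCAAT in 1 (37.8%). CACGTG was in 0 (8.03%) and TATAAA in 0 (12.2%). For REST, a repressor of neuronal genes outside neurons, TTCAGCACC was in 0 (0.407%) and GGACAGC in 4 (7.00%). These 4 were promoters of Smarcc2, Arid1a, Arid1b and Actl6b. In the printed Actl6b promoter 2 GC boxes share a base, and the match to GGACAGC on the minus strand lies 21 bases after the start. A match describes letters in these windows only.

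In the gene bodies, taken as the gene beyond 2 kb of its GENCODE start, 7 of the 10 members had an H3K4me3 peak, 9 peaks in all. Over the 16077 protein-coding genes with a body of at least 5 kb, 34.4% had one. The members had a median body of 52.5 kb against 26.2 kb, and the part of body length in this share was not tested. Of the 9 peaks, 4 lay within 2 kb of an annotated transcript start of the same gene: the peaks at the inner starts of Actl6a and Smarcc1, the internal Smarca2 start and the Smarcc2 transcript. The other 5 lay in Arid1a (1), Arid1b (3) and Actl6b (1). That of Actl6b, with a fold of 5.84, lay at its 3′ end and 27 bp from the start of the neighbouring gene Tfr2. The Arid1a peak in intron 1 had a fold of 2.68. All 9 overlapped an ATAC-seq peak, and the same share over all H3K4me3 peaks was not computed.

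Arid1b had 3 H3K4me3 peaks far from any start of its own gene, and 2 of them were weak. The strongest was in intron 4, which is 115803 bp long. This H3K4me3 peak of 1502 bp with a fold of 14.7 (−log10 q 141) lay 194961 to 196462 bp from the GENCODE start, and the nearest annotated start of Arid1b was 148715 bp away. An ATAC-seq peak of 875 bp lay inside it. Its fold was above that of 59.9% of all H3K4me3 peaks. The other body peaks of Arid1b had folds of 2.30 (−log10 q 2.47) in intron 2 and 4.10 (−log10 q 12.5) in intron 8. These folds were above 0.714% and 26.7% of all H3K4me3 peaks. Both peaks lay far in, 48875 and 255289 bp from the nearest of its starts.

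**Figure D3:**
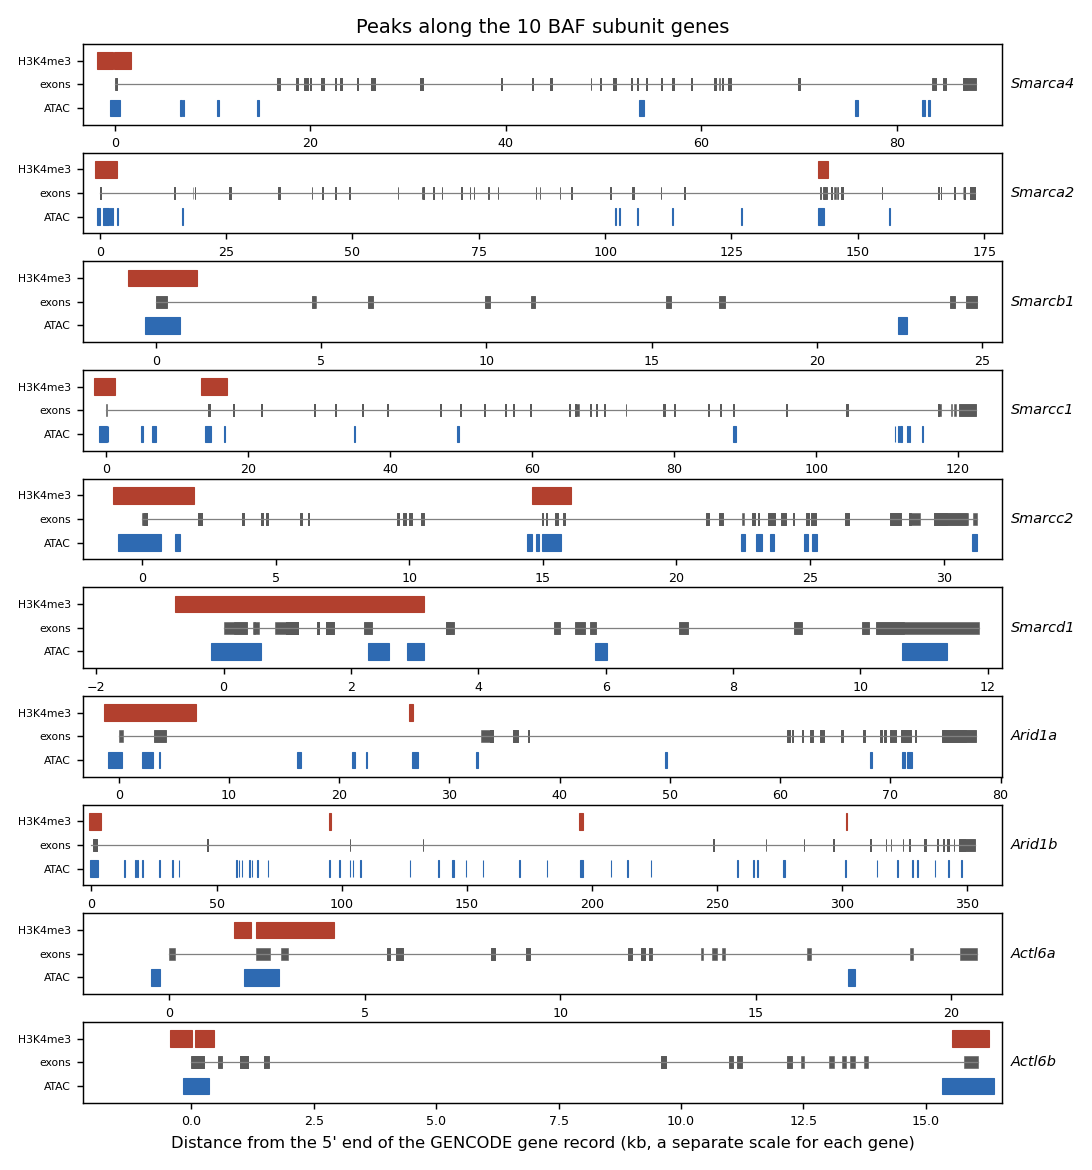
H3K4me3 peaks (red), exons of protein-coding transcripts (grey) and ATAC-seq peaks (blue) along each gene, by distance in kb from the 5′ end of the GENCODE gene record, with a separate scale for each gene. Arid1b, with a body of 351 kb, has 43 ATAC-seq peaks spread over it, and Smarcb1, Actl6a and Actl6b have 1 each.

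All 10 members had an ATAC-seq peak in the body, as did 79.0% of genes with a body of at least 5 kb. The median body of the members was 52.5 kb against 26.2 kb, and the part of length in this share was not tested. The members had 101 such peaks in total. Of these, 20 touched an exon of a protein-coding transcript, 81 were intronic and 17 touched an H3K4me3 peak. The same shares over all genes were not computed. Per 10 kb of body the members had a median of 1.00 peaks, from 0.438 at Smarcb1 to 4.06 at Smarcd1, against a median of 0.771 over all such genes. The densest were Smarcd1 and Smarcc2 (3.08), above 98.6% and 95.8% of genes. Of their body peaks, 3 of 4 in Smarcd1 and 7 of 9 in Smarcc2 touched exons. Only 1 of the 4 in Smarcd1 and 6 of the 9 in Smarcc2 lay beyond 2 kb of every annotated transcript start. In Smarcd1, whose body is 9.86 kb, 2 of the 4 touched the H3K4me3 peak at the start. Arid1b had 43 peaks, of which 11 lay in intron 4, and 1.22 per 10 kb.

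Of the ATPase genes, Smarca4 had 8 body peaks (0.930 per 10 kb), all in introns, 4 of them in intron 1 and none under H3K4me3. Smarca2, with a body of 171 kb, had 10 (0.584 per 10 kb), and 3 of them touched H3K4me3 peaks. For 2 of these it was the peak at the gene start, and for 1 the peak at the internal start. Beyond 2 kb of every annotated transcript start lay 8 body peaks of Smarca4 and 2 of Smarca2. Smarcc1 had 13, of which 6 lay in its intron 26 near the 3′ end of the gene. Actl6a and Actl6b had 1 body peak each, of 180 bp in intron 12 of Actl6a and of 1053 bp at the 3′ end of Actl6b. The 101 body peaks had a median width of 216 bp, from 85 to 1111 bp. The median of the whole list, which includes peaks at gene starts, was 261 bp. The median over body peaks of all genes was not computed.

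**Figure D4:**
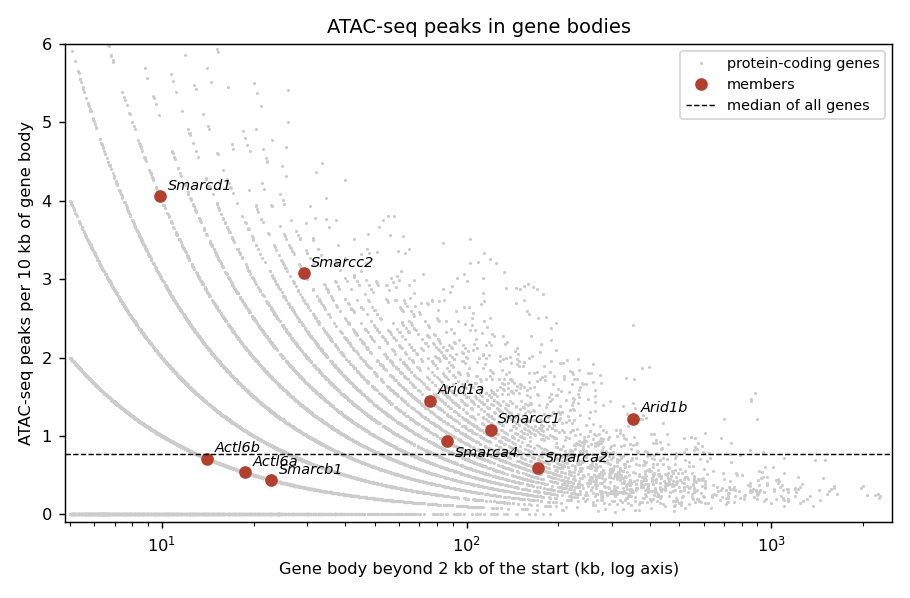
ATAC-seq peaks per 10 kb of gene body against the length of the body beyond 2 kb of the start (kb, log axis), for members (red) and the other protein-coding genes with a body of at least 5 kb (grey; the 23 above 6 per 10 kb are off the axis). The dashed line is the median of all genes, 0.771, and grey curves arise because peaks are whole numbers. Smarcd1 and Smarcc2 lie highest of the members, and Arid1b, with 1.22 per 10 kb, lies above 67.6% of genes.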

How the data were processed

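H3K4me3 ChIP-seq and ATAC-seq peak lists of F123 cells were used, 1 list each for 2 replicates. For H3K4me3 the authors ran the ENCODE histone pipeline at default settings, and aligner and caller versions are not given in the sources used here. Its deposited columns include fold enrichment, a ratio of ChIP signal to background, and −log10 q. For ATAC-seq the authors aligned reads to mm10 with Bowtie 1.1.2 and moved read ends 4 bp. Peaks were called with MACS2 2.1.1.20160309 at a p threshold of 0.01, and those found in both replicates were kept. The ATAC-seq list gives no strength by which weak peaks could be set apart. Per the submitters' processing notes SAMtools and bedtools 2.27.1 were also used. Depth is unknown. The PLAC-seq and input samples were not analysed here.

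Peaks sharing at least 1 bp with a window or gene body were counted against GENCODE M21 genes and RefSeq starts, with Python 3.11.15, numpy 2.4.6 and pysam 0.24.0. The counting was tested on simulated data and checked against bedtools 2.31.1. Intron numbers follow the protein-coding transcript with most exons. Percentages of genes exceeded refer to protein-coding genes with a peak at the same kind of start. For body densities they refer to the 16077 protein-coding genes with a body of at least 5 kb. Members and lists were chosen with earlier results of these data known. All members were named, and of the other subunits those lacking a peak, the 2 highest and 2 lowest folds at GENCODE starts and the neuronal sets. Smarcd2 was named after its values were seen. RefSeq starts were added after seeing the data, and so was the choice of the internal Smarca2 window. Motifs were searched on both strands.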

Additional observations from a re-analysis of the deposited data

How the results depend on the processing

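No paired analysis was possible because both replicates were merged into each list before deposit, and leaving out a replicate was not run for that reason. Of 62 values recomputed under 11 other settings, 56 stayed within 1.5 times. The number of ATAC-seq peaks at member starts moved from 15 to 26 with a 5 kb window and to 24 with any start of a protein-coding transcript. H3K4me3 peaks in member bodies moved from 9 to 5 without 2 kb around every transcript start and to 20 over the whole gene body. Counting only ATAC-seq peaks in the wider 50% of the list, those in bodies moved from 101 to 42 and their median density from 1.00 to 0.390 per 10 kb. The fold of Actl6a minus that of Actl6b was -0.354 and turned to 44.1 with a 5 kb window, with any start of a protein-coding transcript and with RefSeq starts, since each brings the peak at the RefSeq start into the window. With a 1 kb window Actl6a had no peak and the difference was -5.80. The other pairs kept their direction under all settings run. Without counts or replicates, the depth and the error of these values stay unknown.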
